A study of Mus musculus with 15 samples.

Results

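H3K27ac was examined at the 4 genes of the MEF2 transcription factors (Mef2a, Mef2b, Mef2c and Mef2d) and the 4 genes of the class IIa histone deacetylases that repress them (Hdac4, Hdac5, Hdac7 and Hdac9). The members were peaks that overlapped the RefSeq span of one of these 8 genes or the 50 kb on either side. There were 169 of them among the 122375 peaks of the list (0.138%). A peak was assigned to the promoter when it overlapped the 2 kb on either side of any RefSeq start site of the gene, then to the gene body when it overlapped the rest of the span, and otherwise to the flank.

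The tumors were fusion-positive rhabdomyosarcomas (FP-RMS) of MCP mice, which are labelled as carrying Myf6-Cre together with Cdkn2a(Flox/Flox), the fusion allele Pax(3P3F/P3F) and the reporter R26-tdTom. Cre from the Myf6 locus acts in myogenic cells, where it turned on the PAX3-FOXO1 fusion (P3F) from the Pax3 locus, deleted Cdkn2a and switched on the tdTomato marker, so every MCP library carries all of these alleles. Live tumor cells were sorted from dissociated tumors, with DAPI to mark dead cells. The sort for single cells in the same methods took tomato-positive cells, and whether that gate was used for CUT&RUN is not spelled out. CUT&RUN, in which an antibody guides a nuclease to cut out nearby chromatin, was performed with an antibody to H3K27ac, a mark of active promoters and enhancers, and with IgG as background, and the series holds 6 MCP and 3 TCP (Tek-Cre) H3K27ac libraries and 3 IgG libraries of each model. A single peak list, that of MCP H3K27ac replicate 5, was used, so there are no replicates, no comparison between tumor types and no test, and intervals cover counting error only.

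MEF2 proteins are MADS-box factors that bind an A/T-rich site and work with the myogenic factors of the MyoD family to switch on muscle genes. Class IIa HDACs have little deacetylase activity of their own. They bind MEF2 on DNA, bring in corepressor complexes, and are sent out of the nucleus when CaMK, PKD or related kinases phosphorylate them and create docking sites for 14-3-3 proteins. Through this switch calcium signals release MEF2 target genes during muscle differentiation, and MEF2 in turn is known to activate Hdac9.

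Few members had a MEF2 site near the summit. The MEF2 consensus was searched on both strands within 100 bp of each summit, also where this window passed the edges of the peak. A match was found in the windows of 7 of the 169 member peaks (4.14%, Wilson 95% interval 2.02 to 8.30), against 3.02% of all peaks in the list. The class IIa HDAC genes held 6 of the 7 in 107 peaks (5.61%, interval 2.6 to 11.7). The MEF2 genes held 1 in 62 peaks (1.61%, interval 0.285 to 8.59). These intervals overlap and both include the share of the list, so the split is not resolved. Of the 7 matches, 6 are shown here because they are the sequences in the summit windows that the factors themselves are known to recognize. The consensus is in capitals and on the plus strand of mm10.
Hdac4 intron 1, chr1:92178735-92178794: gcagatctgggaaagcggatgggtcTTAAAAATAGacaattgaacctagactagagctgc
Hdac7 intron 1, chr15:97823389-97823448: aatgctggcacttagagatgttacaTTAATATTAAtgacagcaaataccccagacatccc
Hdac9 intron 3, first site, chr12:34613438-34613497: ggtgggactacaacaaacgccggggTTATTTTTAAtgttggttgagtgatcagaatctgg
Hdac9 intron 3, second site, chr12:34612558-34612617: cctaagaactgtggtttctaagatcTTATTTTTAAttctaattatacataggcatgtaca
Hdac9 intron 18, chr12:34270087-34270146: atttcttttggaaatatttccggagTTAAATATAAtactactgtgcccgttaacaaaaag
Mef2a intron 1, chr7:67360447-67360506: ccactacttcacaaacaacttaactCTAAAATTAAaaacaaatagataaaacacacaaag
The Mef2a, Hdac4 and Hdac7 sites lay within 80.5 to 89.5 bp of the summits, and the 3 Hdac9 sites within 39.5 to 48.5 bp. Folds of these 6 peaks were between 3.61 and 6.08, with 9 to 13 fragments over the summit, beside a median fold of 5.22 in the whole list. The Hdac7 site listed here lay outside its peak, and the Hdac9 intron 18 site lay only partly inside its peak. A match is a description of the letters and not a measurement of MEF2 binding.

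The seventh match lay in the strongest peak inside any member gene, in intron 1 of Hdac7. The 100 bp on either side of its summit are shown beside those of the strongest Mef2d promoter peak, the strongest peaks within Mef2a and Hdac9 and the single peak of Mef2c. Capitals mark matches to the MEF2 consensus, to the E-box CAGCTG, which the MyoD family binds, to the E-box CAGGTG, to the AP-1 site TGANTCA and to a homeodomain pair that PAX3 can bind, TAAT and ATTA with 3 bases between them.
Hdac7 intron 1, chr15:97837201-97837401: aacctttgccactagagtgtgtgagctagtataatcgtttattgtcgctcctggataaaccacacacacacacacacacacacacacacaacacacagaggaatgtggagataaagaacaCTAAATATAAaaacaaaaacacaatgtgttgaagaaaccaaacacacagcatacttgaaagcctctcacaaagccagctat
Mef2d upstream of its start, chr3:88141302-88141502: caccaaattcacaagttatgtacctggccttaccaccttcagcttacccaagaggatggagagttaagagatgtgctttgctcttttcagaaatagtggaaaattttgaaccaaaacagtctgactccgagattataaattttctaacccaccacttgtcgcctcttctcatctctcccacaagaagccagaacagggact
Mef2a intron 4, chr7:67287362-67287562: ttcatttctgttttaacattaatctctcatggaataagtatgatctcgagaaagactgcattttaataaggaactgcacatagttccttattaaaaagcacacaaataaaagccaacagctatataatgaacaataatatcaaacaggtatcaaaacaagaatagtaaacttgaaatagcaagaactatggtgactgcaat
Hdac9 intron 27, chr12:34075276-34075476: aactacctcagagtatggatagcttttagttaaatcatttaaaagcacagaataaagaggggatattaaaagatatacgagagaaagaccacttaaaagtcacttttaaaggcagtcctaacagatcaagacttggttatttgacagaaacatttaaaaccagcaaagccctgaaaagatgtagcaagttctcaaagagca
Mef2c intron 4, chr13:83604063-83604263: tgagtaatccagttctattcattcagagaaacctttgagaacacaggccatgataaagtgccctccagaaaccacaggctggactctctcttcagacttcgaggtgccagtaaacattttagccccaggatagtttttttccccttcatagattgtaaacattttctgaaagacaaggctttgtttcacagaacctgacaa
The Hdac7 window held the MEF2 match 24.5 bp from the summit, and none of these motifs was found in the other windows. Over all member peaks, CAGCTG was present in 16 of 169 (9.47%, interval 5.91 to 14.8) against 10.0% of the list, and CAGGTG in 22 (13%, interval 8.76 to 18.9) against 12.4%. TGANTCA was present in 5 member peaks (2.96%, interval 1.27 to 6.74) against 5.18% of the list. The homeodomain pair was found in 0 of 169 member peaks, which allows a share of up to 1.78% by a limit of 3 counts and 2.22% by the Wilson interval, and in 0.436% of the list. For each motif the share over the whole list lay inside the interval of the members.

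RefSeq promoters (GRCm38.p6, the build of mm10) were searched from 250 bases before to 50 bases after the start, and all 8 genes matched, with 14 start sites. A MEF2 match was found at 2 of them, Mef2a and Hdac5, against 3.19% of 32851 promoters (interval 3.00 to 3.38). Both are shown on the strand of the gene with the match in capitals. This search was added after the printed promoters had been seen, and whether the members differ from all promoters was not tested. Hdac7, Mef2c and Hdac9 each had more than 1 of the 14 starts.
Mef2a, minus strand, chr7:67372841-67372870: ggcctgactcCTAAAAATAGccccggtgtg
Hdac5, minus strand, chr11:102230173-102230202: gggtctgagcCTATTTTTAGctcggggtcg
The match began 2 bases before the Mef2a start and 20 bases before the Hdac5 start. Both genes had a promoter peak, but the summits nearest to these starts lay 0.856 kb and 0.226 kb upstream, outside the 100 bp searched around summits.

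Peaks gathered at some members and were nearly absent from others. Hdac7 had 40 peaks, Mef2a 32, Hdac9 26, Hdac5 25, Mef2d 21, Hdac4 16, Mef2b 8 and Mef2c 1. By place, 36 of the 169 were promoter peaks, 81 lay elsewhere in the genes and 52 in the flanks, a split that was not computed for the whole list. A peak lay in the gene or its flanks at all 8 members, as it did at 76.3% of protein-coding genes.

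**Figure D1:**
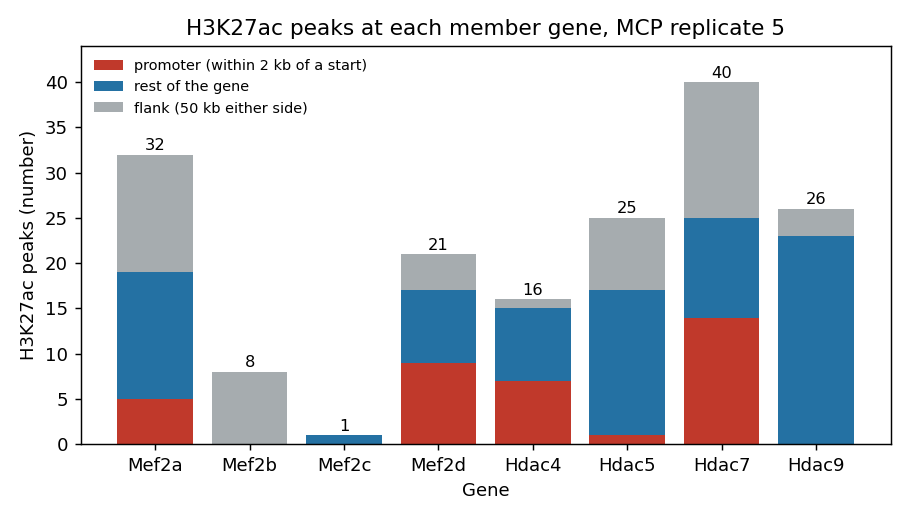
Number of H3K27ac peaks at each member gene (y axis), stacked by place relative to the gene, in MCP H3K27ac replicate 5. Hdac7 stands highest with 40 peaks, 14 of them at promoters, whereas Mef2b, Mef2c and Hdac9 have no promoter segment and Mef2c has 1 peak.

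Divided by the length searched, the order changed. The density was 263 peaks per Mb at Hdac7, 186 at Hdac5, 161 at Mef2d, 130 at Mef2a, 69.7 at Mef2b, 43.6 at Hdac4, 26.8 at Hdac9 and 3.80 at Mef2c. Relative to the density of its own chromosome, the density at Hdac7 was 4.79-fold (Poisson 95% interval 3.42 to 6.53), Mef2d 3.82-fold (2.36 to 5.84), Mef2a 2.95-fold (2.02 to 4.17) and Hdac5 2.34-fold (1.52 to 3.46). Intervals of these neighbors overlapped, so their order is not resolved by the counts. With a flank of 10 kb in place of 50 kb the order was Mef2d (9.91-fold), Hdac7 (6.59-fold), Hdac5 (4.40-fold) and Mef2a (3.29-fold), and among peaks with a -log10 q of 5 or more Mef2d (4.78-fold) and Hdac7 (4.72-fold) were nearly level.

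Mef2b (1.65-fold, interval 0.714 to 3.26) and Hdac4 (0.718-fold, interval 0.410 to 1.17) lay within counting error of their chromosomes, and Mef2b fell below its chromosome, to 0.856-fold, once peaks with a -log10 q under 5 were left out, and to 0.801-fold among the strongest 25% of peaks. Hdac9 (0.663-fold, interval 0.433 to 0.971) and Mef2c (0.0904-fold, interval 0.0023 to 0.503) lay under theirs by count. All density intervals here take each peak as independent, but the 169 peaks formed 54 groups with gaps of up to 3 kb, 12 of them at Hdac9. The intervals are therefore too narrow, and the upper limit of 0.971 does not place Hdac9 below its chromosome. Over the 8 genes together the density was 1.50-fold that of the chromosomes (interval 1.28 to 1.74), and the median member was at 2.00-fold, beside 1.15-fold for the median of all protein-coding genes. Among protein-coding genes Hdac7 stood at percentile 92.9 and Mef2c at percentile 24.1.

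**Figure D2:**
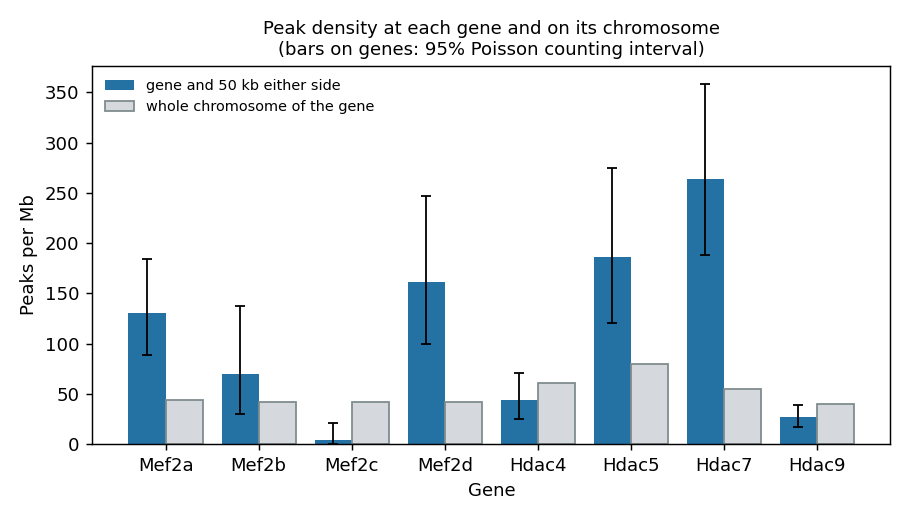
Peaks per Mb (y axis) in each member gene with 50 kb on either side, beside the density of the whole chromosome that carries it. Error bars are 95% Poisson counting intervals of the gene's own count and take each peak as independent. Mef2a, Mef2d, Hdac5 and Hdac7 rise above their chromosomes and Mef2c, at 3.80 per Mb, is close to the axis.

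Fold enrichment divides the fragments over a summit by a background. The lowest background of the list, 1.05 fragments, recurred at many member peaks, and there the fold reflects the fragments alone. Folds were no higher at the members than elsewhere. The member median was 5.22 (binomial 95% interval of the median 4.79 to 5.55), and single peaks ranged from 2.85 to 13.4. The median of the list was the same to 3 digits. Many peaks share one fold value, so equal medians can arise from ties. Median folds per gene lay between 3.62 at Mef2b and 5.65 at Hdac5. A fold of at least 10 was reached by 9 member peaks (5.33%, interval 2.83 to 9.81), against 4.32% of all peaks in the list. Of these, 3 lay in the window of Hdac7, 2 each in those of Mef2d and Hdac9, and 1 each in those of Mef2a and Hdac5. The Mef2a and Hdac5 ones stood at starts of the neighbors Lysmd4 and Lsm12. Of all 169 member peaks, 33 overlapped the promoter of another gene of any type, a share that was not computed for the whole list.

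A promoter peak was present at 5 of the 8 members, Mef2a, Mef2d, Hdac4, Hdac5 and Hdac7 (62.5%, Wilson 95% interval 30.6 to 86.3), against 45.6% of 21774 protein-coding genes. With the start sites of curated transcripts only, the same 5 genes had one, against 45.6% of 21000 genes. The MEF2 genes and the class IIa HDAC genes contributed 2 of 4 and 3 of 4, which these numbers cannot tell apart.

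The 5 members with the most CpG dinucleotides around a curated start had a promoter peak and the other 3 did not. Protein-coding genes were ordered by CpG count in the 1 kb centered on the curated start with the most CpGs, and cut into 10 strata. Genes without a curated start were placed by their predicted starts. A promoter peak was found at 3.76% of genes in the lowest stratum and 73.4% in the highest. Mef2a (117 CpGs), Mef2d (99), Hdac4 (127) and Hdac7 (119) fell in stratum 10 and Hdac5 (92) in stratum 9, where 71.8% of genes had one. By its curated starts Hdac9 (9) fell in stratum 2 and Mef2b (23) in stratum 4, where 8.27% and 27.8% did. Mef2c (47), without a promoter peak, fell in stratum 6, where 65.2% of genes had one. A count of 47 was also the highest in stratum 5, where 49.8% of genes had one, and such ties were split by order alone. Promoter peaks were sought at all RefSeq starts but CpGs were counted at curated starts where a gene had any. The 4 predicted starts of Hdac9 with 114 to 116 CpGs, within the range of stratum 10, had no promoter peak.

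**Figure D3:**
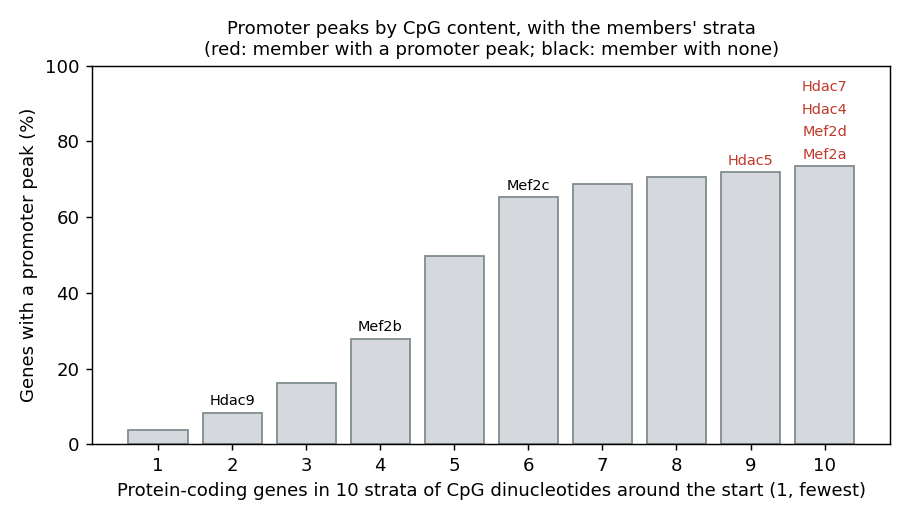
Share of protein-coding genes with a promoter peak (y axis, percent) in 10 strata of CpG content around the start (x axis). The share rises from 3.76% to 73.4%, the 5 members with a promoter peak (red) sit in strata 9 and 10, and Mef2b, Mef2c and Hdac9 (black) sit in strata 4, 6 and 2.

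The 250 bases before the start in RefSeq are shown for a CpG-rich and a CpG-poor case, Mef2d, which had a promoter peak, and the upstream curated start of Hdac9, which had none, with each CpG in capitals and on the strand of the gene.
Mef2d, plus strand, chr3:88142122-88142371: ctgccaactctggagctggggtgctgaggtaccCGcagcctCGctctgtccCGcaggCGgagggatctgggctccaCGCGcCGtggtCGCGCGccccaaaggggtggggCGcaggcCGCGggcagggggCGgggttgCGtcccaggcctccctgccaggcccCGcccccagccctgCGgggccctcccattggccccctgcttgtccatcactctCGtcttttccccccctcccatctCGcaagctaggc
Hdac9, minus strand, chr12:34917096-34917345: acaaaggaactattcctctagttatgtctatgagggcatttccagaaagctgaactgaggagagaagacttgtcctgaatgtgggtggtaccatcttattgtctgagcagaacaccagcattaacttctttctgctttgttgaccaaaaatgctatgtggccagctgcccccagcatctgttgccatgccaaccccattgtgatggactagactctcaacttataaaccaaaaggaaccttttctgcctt
The Mef2d stretch held 19 CpGs and the Hdac9 stretch 0, beside a median of 6 over all promoters of this length. These are the extremes rather than the rule: the Mef2b stretch, without a promoter peak, held 9, the 3 Mef2c stretches held 1, 4 and 6, and one curated Hdac7 start with a promoter peak held 5.

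Mef2d, a broadly expressed MEF2 factor with a muscle-specific splice form, had the most compact pattern. All 21 of its peaks lay in 20.1 kb, from 3.67 kb upstream of the 5′ end to 16.0 kb into the gene, and 20 of them in 12 kb. The strongest peak was just upstream of the promoter window, at chr3:88137934-88138336, with a fold of 12.9 and 34 fragments (Poisson 95% interval 23.5 to 47.5). The strongest and widest promoter peak, chr3:88141192-88141884, had a fold of 10.4 and 23 fragments (interval 14.6 to 34.5) and its summit lay 539 bp upstream of the nearest start.

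Peaks flanked the Mef2d starts on both sides. Of the 9 promoter peaks, that at chr3:88142015-88142102 was the weakest of the gene, with a fold of 3.12 over a raised IgG background of 3.00 fragments. Intron 1 held 12 summits with folds of 3.57 to 6.51, the strongest gene-body peak being chr3:88149334-88149492, and the last peak, in intron 3, was at chr3:88157932-88158012. The rest of the gene and its downstream flank held no listed peak, although 1 peak number is absent from the list in the 138 kb that follow and what it held is not known here.

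Mef2a, the other MEF2 factor with a promoter peak, had its signal spread over 10 separate groups of peaks, taking peaks no more than 3 kb apart as a group. The promoter group held 5 peaks, of which chr7:67371264-67371475 was the strongest with a fold of 6.40 and 14 fragments (interval 7.65 to 23.5). It lay 1.45 kb downstream of the curated start, in intron 1. All 5 had lower folds than each of the 3 peaks of intron 4.

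The strongest and widest peaks within Mef2a lay in intron 4, 85.4 to 88.9 kb downstream of the curated start. Here 3 peaks covered 4114 bp, and chr7:67287382-67288961, 1580 bp wide, had a fold of 9.37 and 26 fragments (interval 17.0 to 38.1). The second, chr7:67283308-67284818, was 1511 bp wide with a fold of 9.10 and the remaining one was 1023 bp wide. These were 3 of the 4 member peaks of at least 1000 bp. For all 3 the nearest protein-coding start was one of Lysmd4, 59966 to 63516 bp away.

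Upstream of Mef2a, 4 peaks lay 13.3 to 14.9 kb before the gene (folds of 4.79 to 6.08) and 4 more at 45.4 to 49.3 kb (3.93 to 6.51). The strongest peak in the whole Mef2a set, chr7:67222623-67222753, had a fold of 13.4 and 30 fragments (interval 20.2 to 42.8). It lay downstream of the gene and 69 bp from a start of Lysmd4, so it is a promoter peak of that neighbor. By distance, 19 of the 32 peaks had a Mef2a start as the nearest protein-coding start and 13 had Lysmd4.

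Mef2b had no peak inside the gene, and the nearest summit lay 12.1 kb upstream of its single start. All 8 peaks in its flanks lay within 2 kb of a start of another gene. A group of 5 stood at the shared promoter region of Borcs8, Rfxank and Gm45929 (folds of 2.90 to 5.65), 2 at Tmem161a and 1 at Slc25a42 (3.74). The strongest, chr8:70172045-70172222 at Tmem161a, had a fold of 6.94 and 15 fragments (interval 8.40 to 24.7), and the widest, chr8:70172425-70172931, had a fold of 3.38. Rfxank encodes a partner of the regulators of MHC class II genes and Borcs8 a subunit of a lysosome-positioning complex. No peak was found at the promoters of Ncan or Nr2c2ap, the other protein-coding genes with a start in the Mef2b window.

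Mef2c, the MEF2 factor needed for heart development and for sarcomere gene expression in muscle, was almost free of the mark. Its only peak in 263 kb, chr13:83604139-83604221, was 83 bp wide with a fold of 4.79, 10 fragments (interval 4.80 to 18.4) and a -log10 q of 3.41. It lay in intron 4, 30.6 kb downstream of the nearest of the gene's 15 starts. None of those starts had a promoter peak, and the nearest upstream summit was 1710 kb from the 5′-most start. The peak was lost when a -log10 q of at least 5 was required and among the strongest 25% of peaks, which leaves Mef2c with 0 peaks. At the lowest background in the list, 1.05 fragments, the weakest listed peaks had 7 fragments, so a fainter enrichment at Mef2c was not detectable at this depth.

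**Figure D4:**
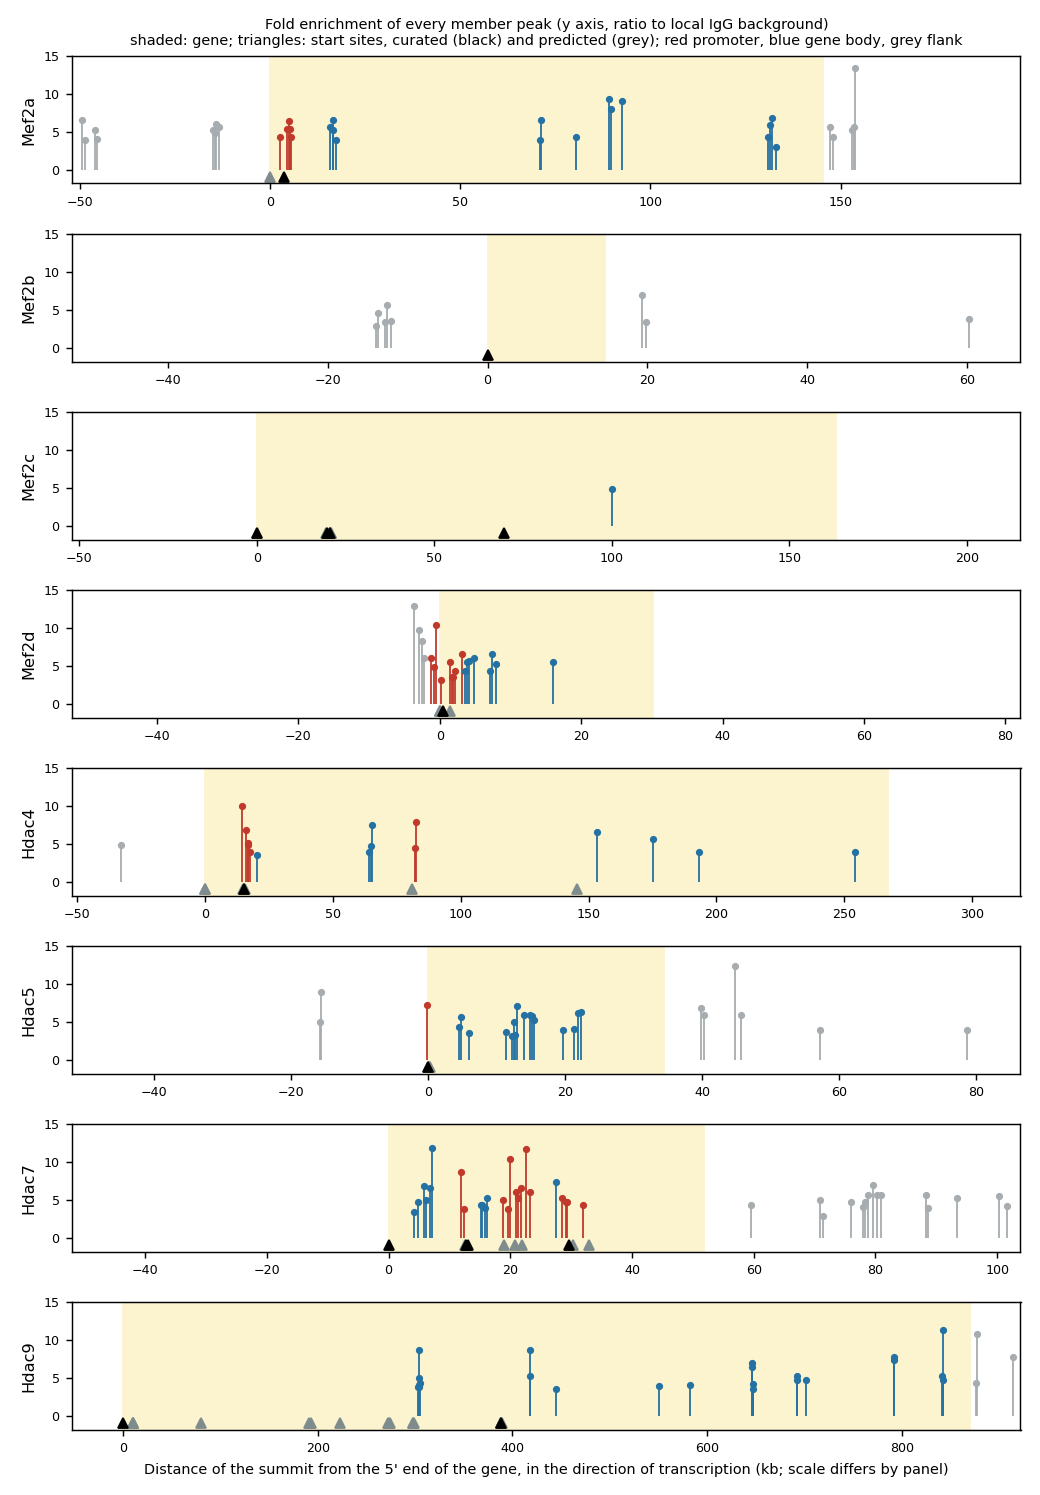
Fold enrichment (y axis, ratio to background, which at many peaks was the lowest value of the list) of every member peak against the distance of its summit from the 5′ end of the gene in the direction of transcription (x axis, kb, scale differing by panel), with the gene shaded, start sites as triangles and peaks colored by place. Mef2d peaks crowd around the start, Hdac7 peaks within the gene lie between 4.14 and 32.0 kb, Hdac9 peaks begin 303 kb into the gene, and Mef2c has 1 peak.

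Hdac7, the class IIa member known for its role in endothelial cells and thymocytes, had the most peaks. The gene itself held 25 peaks in 27.9 kb, and peaks covered 6.20% of the window, beside 1.33% of the chromosomes. Of its 10 start sites 9 had a promoter peak, and the exception was the curated 5′-most start, 4.14 kb from the nearest summit. The strongest promoter peak, chr15:97821520-97822305, had a fold of 11.7 and 26 fragments (interval 17.0 to 38.1), and the widest, chr15:97823728-97824683, was 956 bp wide with a fold of 10.4.

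Which Hdac7 peaks count as promoter peaks rested on predicted transcripts. With all start sites there were 14 and with curated ones 5, the other 9 passing to the gene body. The strongest peak of the gene, chr15:97836993-97837568, had a fold of 11.9 and 27 fragments (interval 17.8 to 39.3) and lay in intron 1, 7.20 kb downstream of the 5′ end. It is the peak whose window with a MEF2 match is shown above, and it also overlapped the promoter of the uncharacterized gene Gm33636. Intron 1 held 18 of the summits.

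All 15 flanking peaks of Hdac7 lay downstream, and 12 of the 40 peaks of the window had a start of Rapgef3 as the nearest. Rapgef3, which encodes a cAMP-activated exchange factor for Rap, had 5 promoter peaks with folds up to 5.65, and Slc48a1, a heme transporter gene, had 1 with a fold of 4.36. The strongest flanking peak was chr15:97764849-97765020, with a fold of 6.94.

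Hdac5, a class IIa member that restrains MEF2 in heart and skeletal muscle, had 1 promoter peak, and it held more fragments than any other member peak. At chr11:102230329-102230840 there were 48 fragments (interval 35.4 to 63.6) with the summit 226 bp upstream of the curated start. Its fold was 7.24 over a background of 5.00 fragments, the highest background among the 169 peaks, and it also overlapped the promoter of Mir8101. The MEF2 match of the Hdac5 promoter is the one shown above.

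The rest of the gene was marked chiefly in intron 3, which held 12 summits with folds of 3.12 to 7.04. The strongest gene-body peak, chr11:102216791-102217374, had a fold of 7.04 and 18 fragments (interval 10.7 to 28.4), and the widest, chr11:102215984-102216596, was 613 bp wide with a fold of 5.94. Upstream, chr11:102245423-102245935 had a fold of 8.98 and 32 fragments, 15.6 kb before the Hdac5 start, with a start of Hrob nearer to it. The strongest flanking peak, chr11:102185407-102185681, had a fold of 12.4 and 41 fragments (interval 29.4 to 55.6) and stood 228 bp from a start of Lsm12, while G6pc3 had 2 promoter peaks of up to 6.82. Tmem101, Hrob and Asb16 had none. Hdac5 was the nearest protein-coding start for 14 of the 25 peaks, G6pc3 for 5, Lsm12 for 3, Hrob for 2 and Tmem101 for 1.

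Hdac4, which controls MEF2 during muscle denervation and in bone growth, had peaks at 2 separate start regions. Around the curated start, 6 peaks lay in 6.24 kb, led by chr1:92181038-92181619 with a fold of 9.93 and 32 fragments (interval 21.9 to 45.2), 373 bp upstream of the nearest start. A second pair lay 1.15 to 1.43 kb downstream of a predicted start within the gene, the stronger, chr1:92112942-92113304, having a fold of 7.91 and 18 fragments. With curated starts this pair passed to the gene body, and the promoter count fell from 7 to 5.

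The strongest and widest gene-body peak of Hdac4, chr1:92129987-92130708, was 722 bp wide with a fold of 7.53 and 20 fragments (interval 12.2 to 30.9). It lay in intron 2, which also held the stronger of that pair. Farther toward the 3′ end there were single peaks in introns 3, 4, 5 and 24, with folds of 3.87 to 6.51, and the only flanking peak, chr1:92228511-92228591, had a fold of 4.79. Hdac4 was the nearest start for all 16 peaks.

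Hdac9, which also encodes the deacetylase-free MEF2-interacting repressor MITR, had 26 peaks and no promoter peak at any of its 23 start sites. With the gene cut into 3 equal stretches of 290 kb, the 5′ stretch held 0 summits, the middle one 10 and the 3′ one 13. One start region predicted by RefSeq had 116 CpGs in 1 kb, beside 117 at Mef2a, and no promoter peak either, the nearest summit being 84.4 kb away. The start with the nearest summit, a predicted one, was 4.31 kb from it, next to a group of 6 peaks in intron 3 with folds of 3.85 to 8.61.

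The 2 strongest Hdac9 peaks lay toward or past the 3′ end. The strongest, chr12:34075313-34076183 in intron 27, had a fold of 11.2 and 25 fragments (interval 16.2 to 36.9). The widest, chr12:34039751-34041064, was 1314 bp wide with a fold of 10.8 and 24 fragments (interval 15.4 to 35.7) and lay past the 3′ end. The summits of these peaks were 118 kb and 83.0 kb from the start of Twist1, which encodes a bHLH repressor of muscle differentiation and lies next to Hdac9.

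For 11 of the 26 Hdac9 peaks Twist1 was the nearest protein-coding start, and Hdac9 for the other 15. Twist1 itself had 4 promoter peaks with folds up to 7.80. Which gene these peaks act on was not measured. A further peak in the 3′ part of the gene was chr12:34124644-34125279 in intron 24, with a fold of 7.80. In intron 4, 418 kb from the 5′ end, chr12:34498833-34498933 had a fold of 8.67 and 19 fragments (interval 11.4 to 29.7).

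The pathway around the 2 families was read from 6 lists with 68 genes in all, of which 48 had a promoter peak (70.6%, Wilson 95% interval 58.9 to 80.1) against 45.6% of protein-coding genes. Their median CpG count around the start was 78.5, which falls in stratum 8, where 70.7% of genes had one. All 7 genes of 14-3-3 proteins, which hold phosphorylated class IIa HDACs in the cytoplasm, had a promoter peak (interval 64.6 to 100). The strongest were at Ywhah (fold 11.7) and Ywhaq (10.4). All 9 corepressor genes had a promoter peak as well (interval 70.1 to 100), led by Ncor1 (10.4), the nuclear receptor corepressor, and Bcl6 (9.96). Median CpG counts of these 2 lists were 82 and 104, which fall in strata 9 and 10, where 71.8% and 73.4% of genes had one.

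All 13 genes of MEF2 coactivators and activating signals had a promoter peak (interval 77.2 to 100). Their median CpG count was 98, within stratum 10, where 73.4% of genes had one. The strongest were at Ppp3ca (14.7), the catalytic subunit of calcineurin, and Maml1 (14.6), a Notch and MEF2 coactivator, and the weakest was at Crebbp (4.36). Of 18 genes of class IIa HDAC kinases 12 had one (66.7%, interval 43.7 to 83.7), led by Camk1 (12.3) and Prkaa1 (11.2), while Camk1d, Camk1g and Camk2b were among the 6 without. Among the other HDAC genes 4 of 7 had one (57.1%, interval 25.0 to 84.2), the strongest at Hdac10 (13.2) and Hdac3 (6.08), the deacetylase of the NCoR complex, and none at Hdac1, Hdac8 or Hdac11.

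MEF2 target genes stood lower. Of 14 there were 3 with a promoter peak (21.4%, interval 7.57 to 47.6), Jun (10.6), Ppargc1a (7.37) and Klf2 (6.51), and Myog, Ckm and Mb, a differentiation factor, muscle creatine kinase and myoglobin, had none. Their median CpG count was 26.5, within stratum 4, where 27.8% of genes had one. Mb nevertheless had 49 peaks in its window, 16 of them over the gene. Of the 4 myogenic regulatory factors, a separate list, only Myf6 had one (5.97), with Myod1, Myog and Myf5 having none. Myf6 is also the gene of the Cre driver in these mice. In the windows 29 peaks lay around Myf5 and 11 around Myod1, none of them over these genes. The Myf5 window also takes in Myf6, so the 2 windows share peaks.

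**Figure D5:**
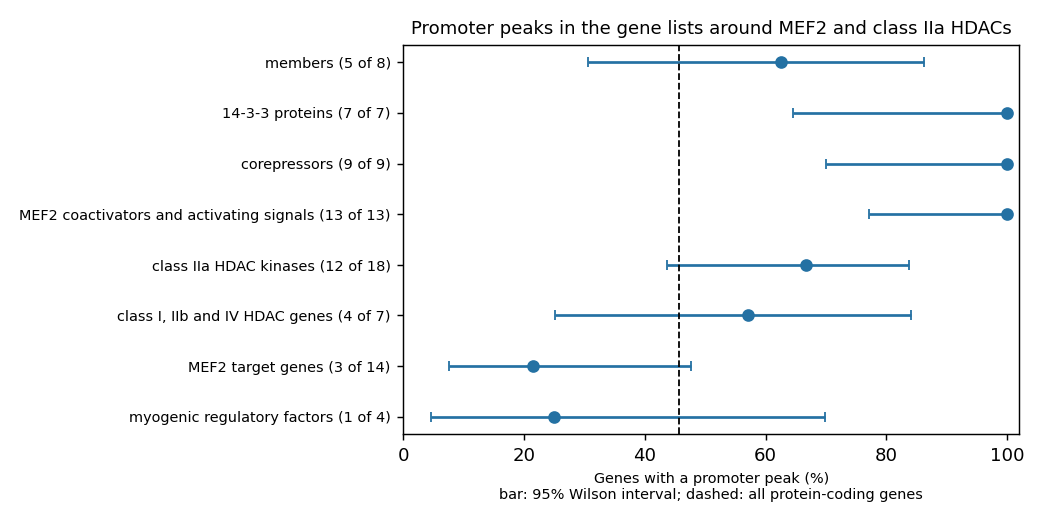
Share of genes with a promoter peak (x axis, percent) in each list, with 95% Wilson intervals and the share of all protein-coding genes, 45.6%, as a dashed line. The lists of 14-3-3, corepressor and coactivator genes are at the right edge, and MEF2 target genes (3 of 14) and myogenic regulatory factors (1 of 4) lie left of the line.

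As a check of the tissue, a promoter peak was found at 3 of 14 myogenic markers (Pax3, which carries the fusion allele, at 18.1, then Myl4 at 12.1 and Myf6, the gene of the Cre driver), at 1 of 14 endothelial markers (Cd34 at 9.10) and at 2 of 14 immune markers (Cd68 at 5.91 and Cd14 at 5.05). Pax7, Myf5 and Myod1 had none, nor did Pecam1, Cdh5 and Kdr or Ptprc, Cd3e and Cd4. The shares were 21.4% (interval 7.57 to 47.6), 7.14% (1.27 to 31.5) and 14.3% (4.01 to 39.9), with overlapping intervals. Median CpG counts of these lists were 50, 36 and 13, which fall in strata 6, 5 and 3, where 65.2%, 49.8% and 16.2% of all genes had a promoter peak. Their median peak densities relative to the chromosome were 2.26, 1.04 and 0.402, beside 1.15 for all protein-coding genes. The part of other cell types in the member peaks was not tested. Fragments over member summits numbered 7 to 48 with a median of 12, beside 13 over the list, and 145 of the 169 (85.8%) had fewer than 20, beside 84.2% of the list.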

How the data were processed

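Members and gene lists were chosen with earlier results of these data known. The authors aligned read pairs to mm10, removed those from regions known to give false signal and from a stretch amplified near Col19a1, and compared H3K27ac with IgG to call peaks. The methods name bowtie and an early MACS, whereas the submitters' processing notes name BWA, SAMtools and MACS2. The methods give a threshold on p, whereas the largest q in the list was 0.0471. The deposited list gives each peak a fold enrichment and the authors' -log10 p-value and -log10 q-value of the summit. The fold is a linear ratio to background that fits with the same constant added to both terms. The list gives no read total, so the depth of the library is unknown. Columns were matched to MCP H3K27ac replicate 5 by the library number in the peak names.

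Whole fragments over each summit were solved from fold and p with 1 scale, 0.885 (99.999% of peaks within 0.01; 3.70% of a sample of peaks with a scale 3% off). For 151 of 169 member peaks 1 whole number fit, and otherwise the closest was taken. These are inferences, and without molecular identifiers the fragments cannot be taken as separate molecules. The list lacks 584 peak numbers. Overlap was at least 1 bp. Genes, start sites and sequences came from RefSeq on GRCm38.p6, and intron numbers follow the longest curated transcript. A window was counted as holding a motif if either strand matched. Named were all 8 members, the strongest peak of each class and the widest, up to 3 peaks per gene with a MEF2 site, of each list the 2 strongest promoter peaks and up to 3 genes with none, and neighbors with a start in a window. Shares carry Wilson and counts exact Poisson 95% intervals. Fragment recovery and peak placement were tested on simulated data. Python 3.11.15 was used with numpy 2.4.6, scipy 1.17.1, pandas 2.3.3, pysam 0.24.0 and matplotlib 3.10.9, and samtools 1.23.1 indexed the genome. Peaks named beyond this rule were chosen after their values were seen. Alternatives were other thresholds, windows and start sites. The other 14 libraries were not analysed here.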

Additional observations from a re-analysis of the deposited data

How the results depend on the processing

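No paired analysis was possible because 1 peak list of 1 library was used. With peaks of a -log10 q of at least 5, member peaks numbered 79 and their median fold was 6.51, equal to that of all such peaks. Equal medians can arise here from ties, since many peaks share one fold value. With the strongest 25% of peaks they numbered 42 with a median of 7.80, again equal to all such peaks, 4 members had a promoter peak (Mef2a had none) and 47.1% of pathway genes (32 of 68) did. MEF2 sites were present in 1.18% of member peaks within 50 bp of the summit (1.41% of all peaks) and in 12.4% within 250 bp (8.21% of all peaks). With a flank of 10 kb the densities of Mef2d, Hdac5 and Hdac7 rose to 9.91, 4.40 and 6.59 times those of their chromosomes, with Mef2d ahead of Hdac7. The density of all members together was between 1.46 and 1.66 under the alternatives run. Of 69 recomputed values 57 stayed within 1.5 times the main count or within the counting interval of the main value, and 12 moved. A change of start sites cannot alter peak counts, densities or median folds, so part of the 57 stayed by construction. Requiring the summit inside the window kept all the same peaks and densities. Sites with under 7 fragments are below the reach of the list, and 1 library gives no measure of variation between tumors.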
